A study of Mus musculus with 8 samples.

Results

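Semaphorins are secreted or membrane-bound ligands, plexins are their main receptors, and neuropilins are co-receptors that pair with plexins. The transcripts of 10 genes of these families are described here in mouse natural killer (NK) cells, out of 54838 gene identifiers counted. They are the ligand genes *Sema4a*, *Sema4b*, *Sema4d*, *Sema6d* and *Sema7a*, the plexin genes *Plxna4*, *Plxnb2*, *Plxnc1* and *Plxnd1*, and the co-receptor gene *Nrp1*. They were chosen by name with their levels in these libraries already known, so their differences between groups are given as a description, with no p-value.

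NK cells of the spleen were taken from MMTV-PyMT mice (teNK, 4 libraries), which the study describes as carrying tumours, and from wild-type FVB/n mice that were healthy (hNK, 4 libraries). MMTV-PyMT mice express the polyoma middle T oncogene from a mammary tumour virus promoter and develop mammary tumours. In both groups the cells were sorted as CD45+, CD49b+ and CD3-, and were kept with cytokines for 12 to 16 h before RNA was taken, so the levels are those of cultured cells. The background strain of the MMTV-PyMT mice, their age and tumour stage, the cytokines and the number of animals per library are not given in the sources used here. No label says that replicates came from separate animals, so the spread between libraries may be technical.

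Semaphorin binding switches on a GTPase-activating domain inside the plexin and alters small GTPases, actin and integrin adhesion. The system was first described in axon guidance. In immune cells, class 4 semaphorins act on lymphocyte and dendritic cell contacts, and NK cells carry Sema4D (CD100) on their surface.

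Reads on genes ranged from 13111043 to 16209895 in teNK and from 5202131 to 12419324 in hNK, so low levels are less precise in hNK. Levels are given in CPM, read counts scaled to a common library size with TMM factors, and 3 reads corresponded to 0.190 to 0.241 CPM in teNK and 0.238 to 0.542 CPM in hNK. The summed level of 10 NK cell genes was 7199 to 7805 CPM in teNK and 3089 to 3638 CPM in hNK. They did not move as one. While 9 were higher in teNK, from 1.33-fold for *Klrb1c* to 4.83-fold for *Ncr1*, *Eomes* was lower. It was at 603 to 674 CPM in teNK and 740 to 831 CPM in hNK. Of the CD3 chains, which the sort selected against, *Cd3g* was at 19.9 to 26.6 CPM in teNK and 14.9 to 32.7 CPM in hNK, and *Cd3e* at 0.698 to 1.91 CPM in teNK and 1.15 to 4.34 CPM in hNK. *Cd3d* rose, with 4.25 to 5.54 CPM in teNK and 1.51 to 3.61 CPM in hNK (edgeR adjusted p = 0.000403). The sum of 5 epithelial genes was lower in teNK, at 0.254 to 0.884 CPM, against 3.97 to 5.28 CPM in hNK. Most of it was *Epcam*, at 0.254 to 0.658 CPM in teNK and 3.97 to 4.45 CPM in hNK. No other gene of that list passed the filter on low counts. *Krt5*, *Krt8* and *Krt14* had no read in any library, and *Krt18* overlapped between the groups. The sum of 5 conventional dendritic cell genes overlapped, at 8.48 to 9.90 CPM in teNK and 6.27 to 9.15 CPM in hNK. Most of it was *Zbtb46*, at 8.03 to 9.65 CPM in teNK and 6.10 to 8.98 CPM in hNK. *Flt3*, *Xcr1*, *Clec9a* and *Cd209a* did not pass the filter, and *Xcr1* and *Clec9a* had no read in hNK. Marker genes of several other cell types summed to more in every teNK library than in any hNK library. The sum of 10 monocyte and macrophage genes was 10.3 to 14.2 CPM in teNK and 3.97 to 5.99 CPM in hNK. Only *Lyz2* and *Cd68* of that list passed the filter. *Lyz2* was at 4.97 to 9.41 CPM in teNK and 0.165 to 0.915 CPM in hNK, and *Cd68* overlapped between the groups. The sum of 8 neutrophil genes was 1.40 to 6.45 CPM in teNK and 0 in hNK. None of the 8 passed the filter, and *S100a8*, *S100a9* and *Mpo* held most of the reads. *Ly6g*, *Camp* and *Retnlg* had no read in any library. The sum of 8 basophil and mast cell genes was 3.13 to 4.82 CPM in teNK and 0.249 to 1.26 CPM in hNK, and that of 7 erythroid genes was 1.85 to 6.86 CPM in teNK and 0 to 0.361 CPM in hNK. Only *Gata2* of the former list and no gene of the latter passed the filter. The part of these cells in the genes that were higher in teNK was not tested. Sums for platelets, B cells, endothelial cells and plasmacytoid dendritic cells are given with single genes. In bulk RNA, fewer cells of a type and less RNA per cell cannot be told apart.

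All 10 genes had reads in both groups, and 8 passed the filter on low counts. *Sema7a* and *Plxnb2* did not pass and were not tested. Of the 8, *Sema4a*, *Plxna4*, *Plxnc1* and *Plxnd1* were higher in teNK and *Sema4d*, *Sema6d* and *Nrp1* were lower, each past an adjusted p of 0.05, and for each the teNK and hNK libraries were fully apart. Only *Sema4b* did not pass. Over all 13903 genes tested, 51.9% passed that threshold, 26.4% as higher in teNK and 25.6% as lower, and 46.5% had teNK and hNK libraries fully apart. With libraries scaled by size alone, 2709 genes were higher and 5114 lower, against 3665 and 3557. The contrast was known when the genes were chosen, so nothing is read from their count.

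*Sema4a* and *Sema4d* were the most abundant members in both groups. *Sema4a* (ENSMUSG00000028064, chromosome 3, 88435959 to 88461182), a transmembrane semaphorin that co-stimulates T cells, measured 296, 285, 288 and 312 CPM in teNK replicates 1 to 4, against 86.6, 89.1, 116 and 98.1 CPM in hNK replicates 1 to 4. Every teNK library was more than any hNK library, and the spread within each group was small beside the gap. Its mean was 295 ± 11.9 CPM in teNK and 97.3 ± 13.1 CPM in hNK (SD, n = 4), 3.05-fold higher in teNK, with a log2 fold change of 1.61 ± 0.08 (SE).

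*Sema4d* (ENSMUSG00000021451, chromosome 13, 51685529 to 51793747) encodes CD100, which binds plexin B1 and, on B cells, CD72, and is shed from the cell surface. It measured 274, 289.5, 288 and 292 CPM in teNK, against 345, 370.0, 351 and 335 CPM in hNK. All 4 teNK libraries lay below all 4 hNK libraries, by a small margin compared with that of *Sema4a*. The means were 286 ± 8.10 CPM in teNK and 350.3 ± 14.5 CPM in hNK (SD, n = 4), 1.23-fold lower in teNK, with a log2 fold change of -0.29 ± 0.06 (SE).

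*Sema4b* (ENSMUSG00000030539, chromosome 7, 80186841 to 80226527), another transmembrane class 4 semaphorin, measured 23.6, 20.1, 20.3 and 23.7 CPM in teNK, against 18.5, 16.0, 19.5 and 22.4 CPM in hNK. The groups overlapped, because hNK replicate 4 was higher than teNK replicates 2 and 3. The log2 fold change was 0.22 ± 0.11 (SE) and missed the threshold, which it passed when hNK replicate 4 was left out, with a log2 fold change of 0.30.

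*Sema6d* (ENSMUSG00000027200, chromosome 2, 124089969 to 124667770), a transmembrane class 6 semaphorin that binds plexins of class A, was a low transcript. It measured 3.03, 2.22, 2.81 and 2.22 CPM in teNK, against 3.82, 4.76, 8.08 and 5.96 CPM in hNK. Every teNK library was below every hNK library, and the hNK libraries were spread more widely, with a SD of 0.414 CPM in teNK and 1.84 CPM in hNK. Its log2 fold change was -1.08 ± 0.23 (SE), 2.11-fold lower in teNK.

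*Sema7a* (ENSMUSG00000038264, chromosome 9, 57940112 to 57962865) encodes a GPI-anchored semaphorin that binds plexin C1 and beta-1 integrins. It had 2, 10, 9 and 9 reads in teNK and 1, 0, 2 and 4 reads in hNK. In hNK these counts lie around the floor of 3 reads, in teNK 3 of 4 libraries were above it, and the groups overlapped. The ratio of pooled reads after scaling, teNK over hNK, was 2.75 with a 95% interval of 1.18 to 7.41, which covers counting error only. *Itgb1*, the beta-1 integrin chain, fell to 1306 ± 83.4 CPM in teNK, against 1918 ± 199 CPM in hNK. *Itga1*, the alpha-1 chain that pairs with it, fell to 0.452 ± 0.167 CPM in teNK, against 14.9 ± 5.34 CPM in hNK (SD, n = 4), a log2 fold change of -5.03 ± 0.31 with an adjusted p of 9.70e-10 in edgeR.

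**Figure D1:**
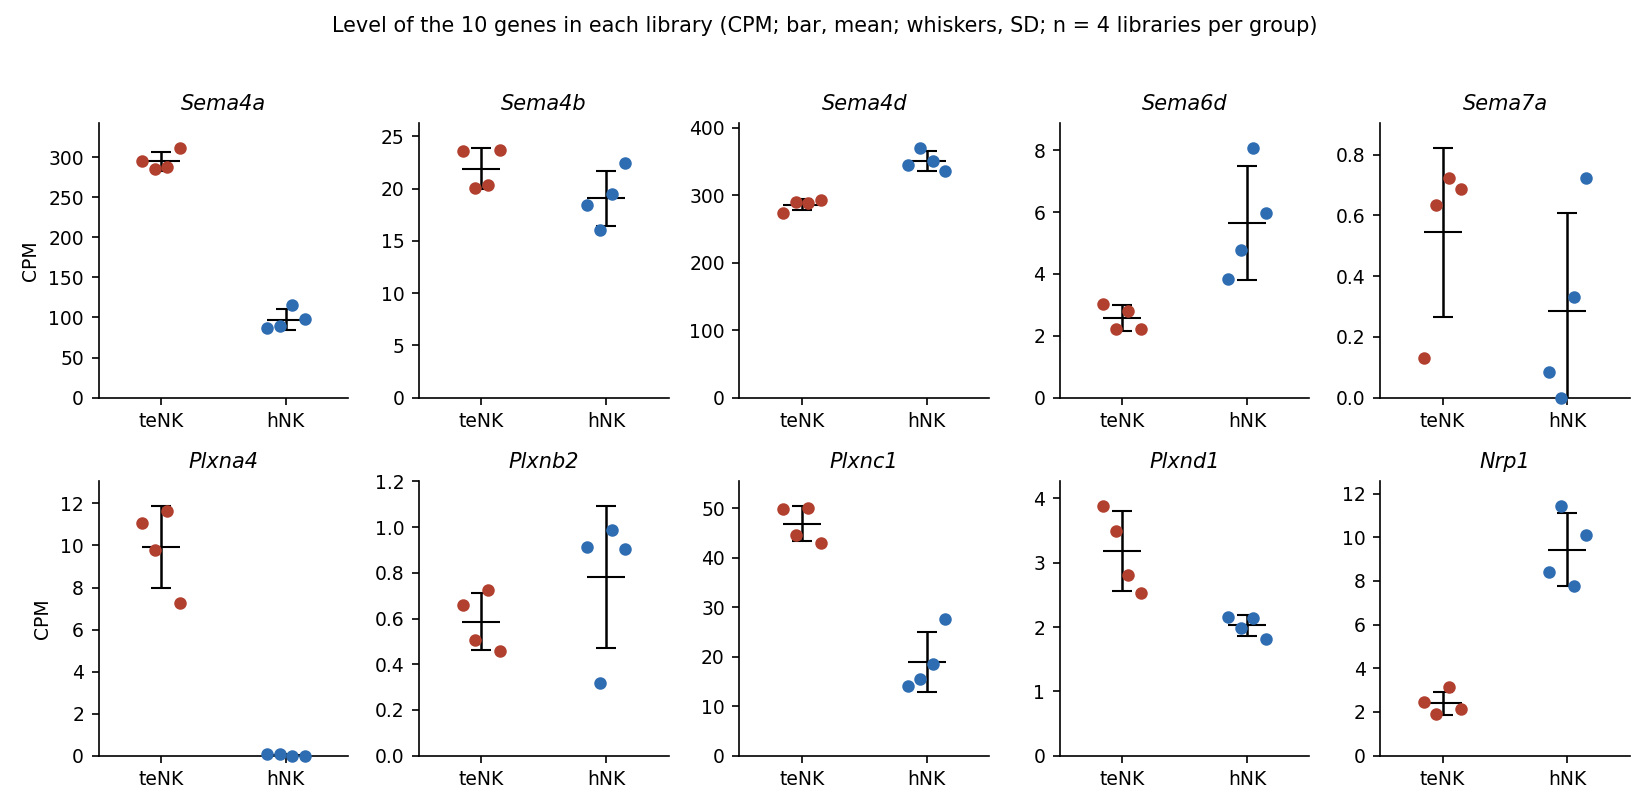
CPM of the 10 genes in each library, with teNK left of hNK; points are libraries, bars the mean and whiskers the SD (n = 4), cut at 0, and each panel has its own axis. The 4 teNK libraries of *Sema4a* lie between 285 and 312 CPM, above all hNK libraries, and those of *Nrp1* lie between 1.90 and 3.13 CPM, below all hNK libraries.

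Among the plexins, *Plxnc1* (ENSMUSG00000074785, chromosome 10, 94790866 to 94944835), the receptor of Sema7A, was the most abundant per length. It measured 49.9, 44.6, 49.97 and 43.0 CPM in teNK, against 14.1, 15.5, 18.5 and 27.6 CPM in hNK. The groups did not overlap, although hNK replicate 4 stood above the other 3 hNK libraries. The means were 46.9 ± 3.59 CPM in teNK and 18.9 ± 6.08 CPM in hNK (SD, n = 4), 2.58-fold higher in teNK, with a log2 fold change of 1.37 ± 0.14 (SE). The transcript of its ligand, *Sema7a*, had at most 10 reads in any library.

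*Plxna4* (ENSMUSG00000029765, chromosome 6, 32144268 to 32588192) encodes a receptor for class 6 semaphorins and, with neuropilins, for class 3. It had 168, 154, 145 and 95 reads in teNK and 1, 1, 0 and 0 reads in hNK. In CPM, teNK libraries measured 11.1, 9.78, 11.6 and 7.26, and hNK libraries 0.0831, 0.0794, 0 and 0. The ratio of pooled reads, teNK over hNK, was 180 with a 95% interval of 49.7 to 1492, and the interval covers counting error only. All 4 teNK libraries were far above all 4 hNK libraries, and the size of the difference is poorly fixed by 2 reads. The fitted log2 fold change, 7.24, depends on the prior count. The 3 antisense genes that overlap *Plxna4* had no read.

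Platelet genes, like *Plxna4*, were higher in teNK. The summed level of 12 platelet genes was 314, 290.0, 321 and 186 CPM in teNK replicates 1 to 4, against 30.8, 30.7, 19.8 and 44.4 CPM in hNK replicates 1 to 4. All 11 tested members of that list were called higher in teNK, against 26.4% of all tested genes. *Gp1bb*, which was not tested, had 9 reads in teNK and no read in hNK. Within teNK, replicate 4 was the lowest and replicate 3 the highest in both *Plxna4* and the platelet sum. Within hNK, replicate 4 had the highest platelet sum and no *Plxna4* read. Among 10453 genes compared, the pair with profiles closest to *Plxna4* over the 8 libraries were *Tubb1*, the platelet tubulin, and *Vwf*, von Willebrand factor. Their root mean square distances were 0.332 and 0.344 log2 units after centring each gene on its mean. Such distances carry mainly the difference between the groups. B cell genes were also higher in teNK, with 10 of 11 called higher, against 26.4% of all tested genes. The summed level of the 11 was 137 to 169 CPM in teNK and 88.2 to 129.5 CPM in hNK. The remaining one, *Ighm*, was the most abundant, at 87.7 to 104 CPM in teNK and 80.3 to 119.96 CPM in hNK. Without it, a choice made after its values were seen, the sum was 42.1 to 67.6 CPM in teNK and 2.33 to 11.2 CPM in hNK. The part of these cells in the level of *Plxna4* was not tested.

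**Figure D2:**
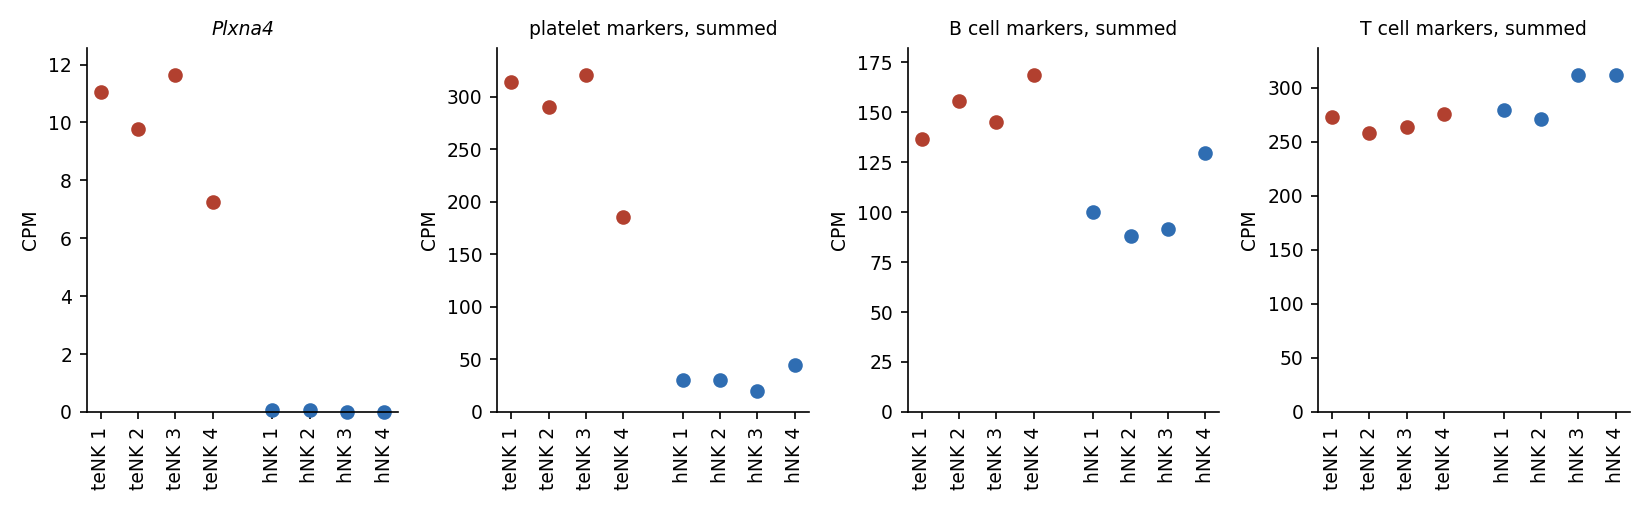
CPM of *Plxna4* and summed CPM of 12 platelet, 11 B cell and 8 T cell marker genes in each library, teNK left of hNK. *Plxna4* and the platelet sum are both lowest within teNK in replicate 4 (7.26 and 186 CPM), while the T cell sum is of similar size in both groups. Most of that sum is *Trbc1*, at 208 to 224 CPM in teNK and 221 to 257 CPM in hNK. Within it, *Cd3d* is higher and *Trbc2* lower in teNK.

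*Plxnd1* (ENSMUSG00000030123, chromosome 6, 115954811 to 115995005), a receptor of Sema3E and Sema4A, measured 3.88, 3.49, 2.81 and 2.52 CPM in teNK, against 2.16, 1.99, 2.14 and 1.81 CPM in hNK. The groups did not overlap, and teNK replicate 4 was the closest to the hNK range. The log2 fold change was 0.65 ± 0.22 (SE), 1.57-fold higher in teNK. It missed the threshold without hNK replicate 2, without teNK replicate 1 and without teNK replicate 2, and when libraries were scaled by size alone. In endothelial cells, where plexin D1 is well known, the summed level of 6 marker genes was 2.65 to 5.33 CPM in teNK and 0 to 0.495 CPM in hNK. *Cdh5*, one of them, had no read in hNK and 0.459 to 0.724 CPM in teNK, and the part of such cells was not tested.

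*Plxnb2* (ENSMUSG00000036606, chromosome 15, 89155549 to 89180788), a receptor of class 4 semaphorins, had 10, 8, 9 and 6 reads in teNK and 11, 4, 6 and 5 reads in hNK. The groups overlapped, and the ratio of pooled reads after scaling was 0.814 with a 95% interval of 0.472 to 1.42. A difference was not detectable at this depth. *Plxnb1*, the receptor with the highest affinity for Sema4D, had 37 reads in each group, and its log2 fold change of -0.63 ± 0.41 (SE) missed the threshold (edgeR adjusted p = 0.217).

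*Nrp1* (ENSMUSG00000025810, chromosome 8, 128358604 to 128503363) encodes neuropilin 1, a co-receptor of plexins for class 3 semaphorins that also binds VEGF-A. It measured 2.44, 1.90, 3.13 and 2.14 CPM in teNK, against 8.40, 11.4, 7.75 and 10.1 CPM in hNK. Every teNK library was below every hNK library. The means were 2.40 ± 0.533 CPM in teNK and 9.43 ± 1.67 CPM in hNK (SD, n = 4), 3.97-fold lower in teNK, with a log2 fold change of -1.99 ± 0.19 (SE).

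*Nrp2*, the other neuropilin, went the opposite way. It measured 6.65, 4.95, 7.15 and 5.73 CPM in teNK, against 1.91, 1.75, 3.46 and 5.96 CPM in hNK, and hNK replicate 4 overlapped the teNK range. Its log2 fold change was 1.07 ± 0.29 (SE, edgeR adjusted p = 0.00567). Per length, the level of *Nrp1* over that of *Nrp2* was 0.443 to 0.530 in teNK libraries and 2.05 to 7.92 in hNK libraries, so the more abundant neuropilin was *Nrp2* in every teNK library and *Nrp1* in every hNK library.

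In humans, plasmacytoid dendritic cells also carry neuropilin 1. Of 5 genes of these cells, *Cox6a2* and *Pacsin1* passed the filter and both were lower in teNK, and the summed level was 0.790 to 1.77 CPM in teNK and 12.5 to 21.03 CPM in hNK. *Pacsin1* made up most of that sum in hNK libraries 1, 2 and 4, *Klk1* had no read in any library, and *Siglech*, a defining marker, was at most 0.459 CPM in teNK and 0.330 CPM in hNK. The part of such cells in the level of *Nrp1* was not tested.

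RefSeq promoters on GRCm38.p6 were listed for 9 of the 10 genes, at 17 starts. The 250 bases upstream of the start are shown for the 3 receptor genes that differed and have 1 listed start, with GC boxes (GGGCGG, either strand) in capitals.
Plxnc1 (chr10:94944846-94945095, minus strand): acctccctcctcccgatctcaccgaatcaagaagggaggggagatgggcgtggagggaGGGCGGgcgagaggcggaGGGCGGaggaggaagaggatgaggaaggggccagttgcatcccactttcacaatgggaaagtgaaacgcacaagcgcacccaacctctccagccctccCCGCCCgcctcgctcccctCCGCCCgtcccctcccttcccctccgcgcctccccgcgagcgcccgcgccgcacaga
Plxnd1 (chr6:115995006-115995255, minus strand): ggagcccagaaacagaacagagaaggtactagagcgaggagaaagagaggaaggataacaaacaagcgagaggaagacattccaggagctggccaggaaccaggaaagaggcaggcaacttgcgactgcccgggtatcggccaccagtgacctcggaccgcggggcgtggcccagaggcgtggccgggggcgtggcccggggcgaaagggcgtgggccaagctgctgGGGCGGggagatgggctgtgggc
Nrp1 (chr8:128358823-128359072, plus strand): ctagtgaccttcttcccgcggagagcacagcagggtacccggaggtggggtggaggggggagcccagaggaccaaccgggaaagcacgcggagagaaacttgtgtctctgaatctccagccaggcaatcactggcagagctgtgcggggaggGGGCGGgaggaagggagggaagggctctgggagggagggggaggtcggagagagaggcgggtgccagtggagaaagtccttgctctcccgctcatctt
*Plxnc1* held 4 GC boxes and the others 1 each, so receptors that differed in opposite directions both held this motif. The bases just after the listed start matched an annotated transcript for *Plxnd1* and *Nrp1* but not for *Plxnc1*. The listed start of *Plxnc1* lies just outside the span of the gene given above. Over the 9 genes, 13 of 17 starts held a GC box, against 32.7% of all 32851 listed starts. Starts of the same gene are not independent, and some windows of *Sema4a* overlap. A share for windows of like GC content was not computed, so nothing is read from the difference. The GC content of the 17 windows ranged from 45.2% to 72.4%, and its median over all starts was 52.4%. The AP-1 motif (TGANTCA) was found at 1 start, of *Sema4d*, against 6.75% of all starts. The RUNX motif (TGTGGT) was found at 1 start each of *Sema4d* and *Sema6d* (14.1% of all), and the E-box (CACGTG) at 1 start each of *Sema4b* and *Sema6d* (6.02% of all). The T-box (AGGTGTGA), ETS (CCGGAAGT) and ATF4 (TGATGNAA) motifs were in none of the 17 windows and in 1.12%, 2.88% and 3.45% of all starts. Both strands were searched, overlapping matches were counted, and a match is only a match of letters.

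Compared per kilobase of exon, *Sema4a* came first in teNK at 54.6 ± 2.21 CPM per kilobase, and *Sema4d* second at 37.2 ± 1.05 (SD, n = 4). In hNK the order was reversed, with *Sema4d* at 45.6 ± 1.89 and *Sema4a* at 18.01 ± 2.43 CPM per kilobase. The ratio of *Sema4a* to *Sema4d* per length was 1.40 to 1.53 in the teNK libraries and 0.342 to 0.468 in the hNK libraries, with no overlap.

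After these came *Plxnc1* (5.61 CPM per kilobase), *Sema4b* (3.88), *Plxna4* (0.705), *Plxnd1* (0.435), *Nrp1* (0.246), *Sema6d* (0.243), *Sema7a* (0.165) and *Plxnb2* (0.0760) in teNK. Ranges of neighbours in that order overlapped from *Plxna4* to *Plxnd1* and from *Nrp1* on down, and the others were apart. In hNK the order below the first pair was *Sema4b* (3.38), *Plxnc1* (2.27), *Nrp1* (0.963), *Sema6d* (0.536), *Plxnd1* (0.277), *Plxnb2* (0.101), *Sema7a* (0.0861) and *Plxna4* (0.00288). There, *Sema4b* overlapped *Plxnc1*, *Plxnb2* overlapped *Sema7a*, and *Sema7a* overlapped *Plxna4*, while the other neighbours were apart.

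Over all 20 semaphorin genes, the summed level was 101 ± 2.60 CPM per kilobase in teNK and 70.7 ± 2.87 in hNK. *Sema4a* made up 52.9% to 54.8% of it in teNK and 23.3% to 28.7% in hNK, and *Sema4d* 35.3% to 37.8% in teNK and 61.4% to 68.2% in hNK. The 11 plexin and neuropilin genes summed to 8.99 ± 0.742 CPM per kilobase in teNK and 4.595 ± 0.928 in hNK, so ligand transcripts outnumbered receptor transcripts in both groups. *Plxnc1* was 62.0% to 63.3% of the receptor sum in teNK and 44.5% to 56.0% in hNK. *Nrp1* was 2.27% to 3.34% of it in teNK and 17.4% to 28.4% in hNK.

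**Figure D3:**
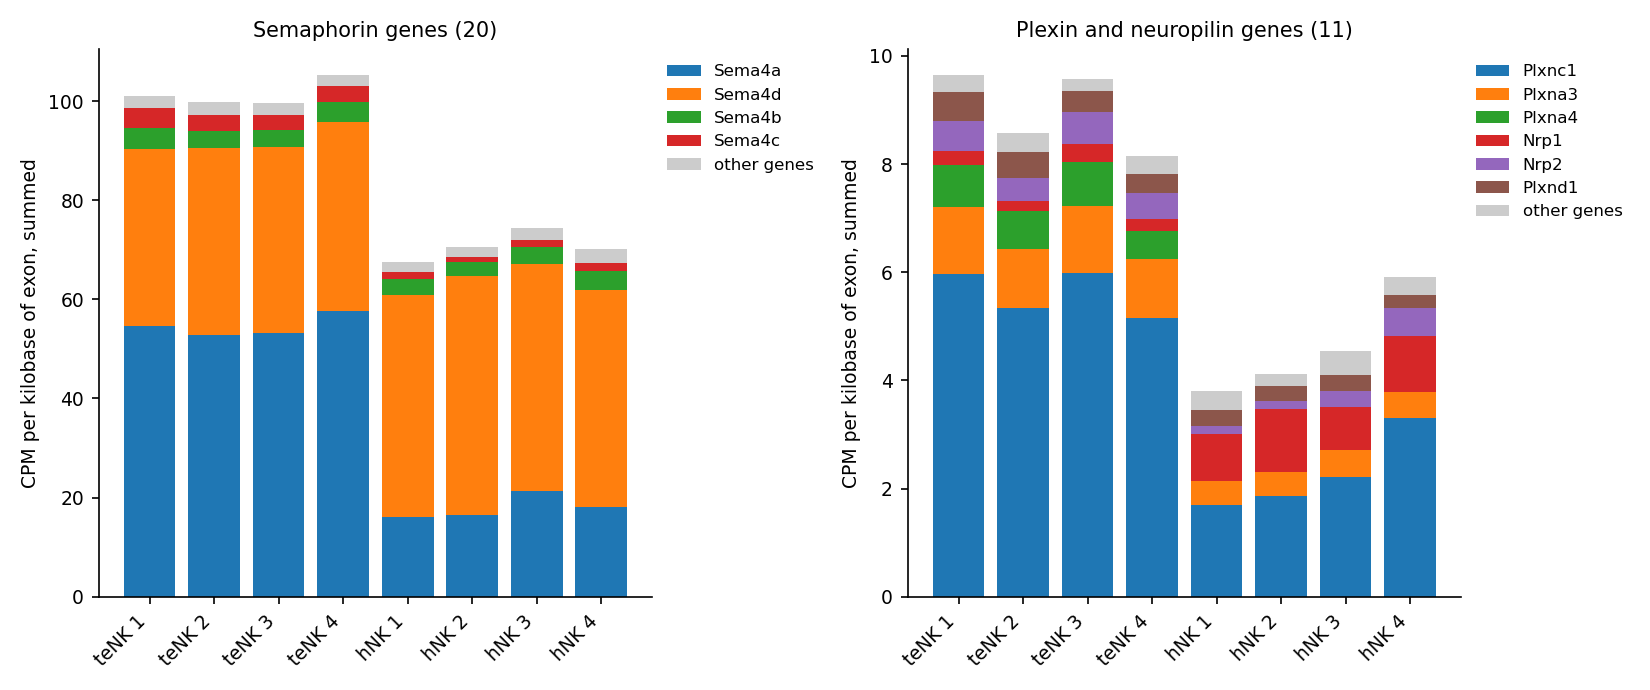
Summed CPM per kilobase of exon of the 20 semaphorin genes and of the 11 plexin and neuropilin genes in each library, teNK left of hNK, split by gene. *Sema4a* is at least 52.9% of the semaphorin bar in each teNK library and *Sema4d* at least 61.4% in each hNK library.

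The rest of the family was mostly low. Of its 21 genes, 19 had reads and 8 passed the filter on low counts. Of these, 5 rose and 1 fell in teNK, against 26.4% higher and 25.6% lower over all genes. Their median log2 fold change was 0.74, and that of all tested genes was -0.02. *Sema4c*, a further class 4 ligand, rose to 15.2 ± 2.31 CPM in teNK, against 6.32 ± 0.769 CPM in hNK, a log2 fold change of 1.29 ± 0.14 (SE, edgeR adjusted p = 1.30e-06). *Plxna3*, a class A plexin on the X chromosome, rose to 9.17 ± 0.613 CPM in teNK, against 3.68 ± 0.231 CPM in hNK, 2.51-fold (edgeR adjusted p = 1.14e-06).

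*Sema6b* rose to 1.01 ± 0.138 CPM in teNK, against 0.232 ± 0.161 CPM in hNK, where 9 reads were counted in all. *Sema6a* rose by a log2 fold change of 0.41 ± 0.14 (edgeR adjusted p = 0.0250), a call lost without hNK replicate 2, without teNK replicate 2 and with scaling by library size alone. *Sema6c* fell by 0.94 on the log2 scale (SE 0.33, edgeR adjusted p = 0.0233), a call lost in DESeq2 and without hNK replicates 1 or 2 or teNK replicates 2 or 4. *Sema4f* measured 2.94 ± 0.474 CPM in teNK and 2.49 ± 0.909 CPM in hNK, and missed the threshold. The secreted class 3 semaphorins had at most 14 reads per group, and *Sema3e* had none in any library. *Plxnb3* had 37 reads in teNK and 8 in hNK, and *Plxna1* had 28 in each group, and neither was tested.

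**Figure D4:**
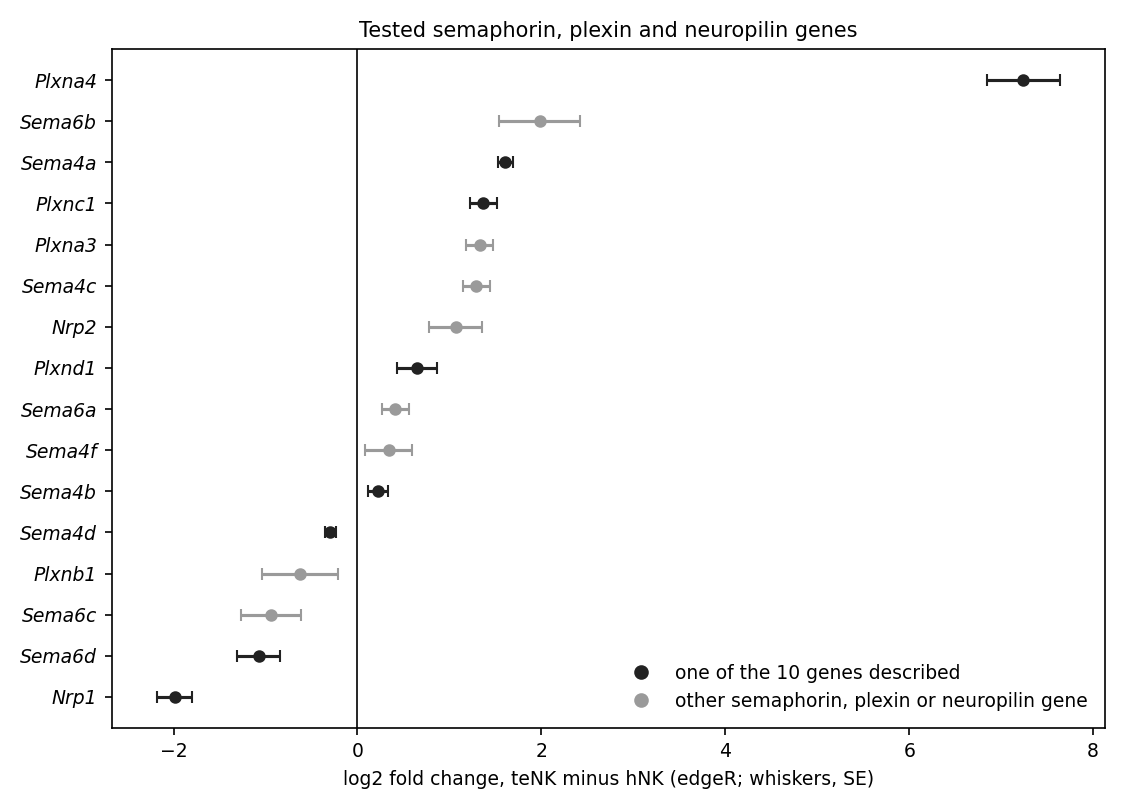
Log2 fold change, teNK minus hNK, of the 16 semaphorin, plexin and neuropilin genes that passed the filter, with the SE from edgeR as whiskers; black points are genes of the 10 described and grey points the others. *Plxna4* is at the top at 7.24, a value that rests on 2 hNK reads and the prior count, and *Nrp1* at the bottom at -1.99.

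Genes that act with these ligands and receptors were set beside them, in lists drawn from their known roles. The lists were made with earlier results of these data known, so nothing is read from their counts or medians, here or below. Of 59 such genes, 45 were tested, 24 rose and 10 fell, and their median log2 fold change was 0.27, against 26.4% higher, 25.6% lower and a median of -0.02 over all 13903 genes. With libraries scaled by size alone the split was 19 and 14. All 8 tested partner receptors and ligands passed, with 4 higher and 4 lower, where 51.9% of all tested genes passed. *Cd72*, the B cell receptor of Sema4D, rose to 2.35 ± 0.378 CPM in teNK, against 0.698 ± 0.351 CPM in hNK, beside the higher B cell genes given above. *Timd2*, a receptor of Sema4A in mice, had no read.

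*Tyrobp*, the DAP12 adaptor that plexin A1 can use, rose to 458 ± 33.9 CPM in teNK, against 192 ± 20.99 CPM in hNK (log2 fold change 1.26 ± 0.08, edgeR adjusted p = 1.70e-09). *Vegfa*, a ligand of neuropilin 1, rose 2.25-fold, to 85.5 ± 17.1 CPM in teNK, against 38.6 ± 4.92 CPM in hNK, where its co-receptor *Nrp1* was the higher one. *Kdr*, the VEGF receptor that pairs with neuropilin 1, rose to 2.23 ± 0.419 CPM in teNK, against 0.207 ± 0.248 CPM in hNK. *Kdr* also marks endothelial cells, whose summed markers, given with *Plxnd1*, were higher in teNK. Of these, *Cdh5*, *Plvap* and *Tek* had no read in hNK, *Emcn* had none in any library, and *Stab2* was at 1.04 to 2.48 CPM in teNK and 0 to 0.165 CPM in hNK. The part of such cells in the level of *Kdr* was not tested. *Vegfb*, which also binds neuropilin 1, fell to 2.50 ± 0.445 CPM in teNK, against 4.75 ± 0.727 CPM in hNK.

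Of 34 tested genes of plexin signalling, 19 rose and 5 fell, against 26.4% higher and 25.6% lower over all tested genes. *Rap1b*, a small GTPase of the kind that the plexin domain inactivates, rose 3.15-fold, to 1484 ± 81.0 CPM in teNK, against 471 ± 81.2 CPM in hNK (edgeR adjusted p = 9.80e-10). *Fyn*, a kinase downstream of plexin A, rose by a log2 fold change of 0.63 ± 0.06, and *Dpysl3*, of the collapsin response mediator family, by 2.32 ± 0.23. *Rhod*, a GTPase that binds plexins, fell to 0.418 ± 0.147 CPM in teNK, against 3.10 ± 0.507 CPM in hNK. *Arhgef12*, a RhoA exchange factor that binds plexin B, rose by 1.45 ± 0.23. *Arhgef11*, the related factor, was at 5.45 ± 0.373 CPM in teNK and 6.38 ± 1.23 CPM in hNK, and *Rhoa* at 645 ± 39.6 CPM in teNK and 666 ± 64.7 CPM in hNK, and both missed the threshold. Of the enzymes that cleave semaphorins, *Furin* fell to 96.2 ± 4.33 CPM in teNK, against 168 ± 10.4 CPM in hNK (edgeR adjusted p = 1.88e-08). *Adam10* rose by 0.27 ± 0.08, a call lost with scaling by library size alone, and *Adam17* missed the threshold at 0.14 ± 0.06.

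The profile of each tested member was compared with that of 10452 or 10453 other genes over the 8 libraries. *Sema4a* was nearest to *Plcg2*, a phospholipase of immune receptor signalling, at 0.0646 log2 units, and then to *Nckap5l* at 0.0665. *Sema4d* was nearest to *Tnfaip8l2* at 0.0308, and *Plxnc1* to *Nsmce1* at 0.112 and to *Klrb1f*, an NK cell receptor, at 0.115. *Nrp1* was nearest to *Gm9856* at 0.192 and to *Gclm*, a subunit of the first enzyme of glutathione synthesis, at 0.194. These distances carry mainly the difference between the groups.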

How the data were processed

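Counts of 8 libraries were analysed. The authors deposited 1 file per library with raw read counts per Ensembl gene. Per the submitters' processing notes, the tools were HISAT2 2.1.0, SAMtools and HTSeq, with build GRCm38, and the library kit marks strand, per the labels' protocols. The strand setting, the annotation release and the handling of reads with several alignments are not given in the sources used here. The 5 summary lines were left out: 32.3% to 41.2% of reads per library were in no gene and 1.52% to 2.07% were ambiguous. GENCODE M21 (GRCm38) gave symbols to 54809 of 54838 identifiers and gave coordinates and exon lengths, the union over isoforms.

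In R 4.3.3, the quasi-likelihood test of edgeR 4.0.16 was run on group alone, after filterByExpr and TMM scaling, with Benjamini-Hochberg adjustment over 13903 genes. Genes were called at an adjusted p under 0.05. The SE is the size of the log2 fold change divided by the square root of F. Intervals of pooled read ratios are exact Clopper-Pearson intervals at 95%, given the total. The code was tested on simulated counts. The 10 genes and all lists were chosen with earlier results of these data known. All members were named, with up to 4 genes per pathway list by smallest adjusted p, genes that bind a member, and the nearest profiles among genes whose log2 CPM averaged 2 or more. No pair of libraries in a group agreed within sampling noise (chi-square per degree of freedom 3.51 to 11.3), so all 8 were counted. Descriptions of the teNK libraries mention reruns in further lanes and those of hNK do not, so lane layout and group cannot be told apart. Alternatives were other scaling, other filters, DESeq2 1.42.0, limma-voom (limma 3.58.1), the replicate number as a block, and leaving out each library.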

Additional observations from a re-analysis of the deposited data

Results flagged for a closer look

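In 122 groups of 4 libraries (61 tested genes of the family and pathway lists in each group), 1 library stood far from the other 3 in 7, and chance flags about 1 group in 20. None of the 8 tested members was among them, and *Sema7a* and *Plxnb2*, which did not pass the filter, were not checked. The gap is given as a share of the range within the group. In teNK it was 0.886 for *Sema4c* and 0.962 for *Vegfa*, both with replicate 1 highest at 18.6 and 111 CPM. It was 0.924 for *Kdr*, with teNK replicate 4 lowest at 1.61 CPM, and 0.832 for *Rhoa* and 0.916 for *Rap1a*, with teNK replicate 2 lowest. In hNK it was 0.863 for *Arhgef12*, with replicate 4 highest at 11.4 CPM, and 0.85 for *Cdk5r1*, with replicate 2 lowest.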

How the results depend on the processing

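Over 16 alternatives, the direction of the log2 fold change was kept for all 8 tested members, and *Sema4a*, *Sema4d*, *Sema6d*, *Plxna4*, *Plxnc1* and *Nrp1* passed the threshold in every one. *Plxnd1* passed in 12 of 16 and *Sema4b* in 1 of 16. *Sema4a* ranged from 1.48 to 1.70, *Plxnc1* from 1.24 to 1.57 and *Nrp1* from -2.13 to -1.87. *Sema4d* was at -0.42 with library size alone, and *Plxna4* at 6.58 in limma-voom. *Sema7a* and *Plxnb2* did not pass the filter of the main fit, so they have no main value to compare with. Of 47 genes called on the family and pathway lists, 35 were called in all 16 alternatives, 11 lost the call in 1 or more, and none reversed. *Sema6b* was called in the 12 in which it passed the filter and was not tested in the others. Leaving out 1 library gave 6604 to 7263 genes called, 9 to 14 of the family and 28 to 34 of the pathway lists, against 7222, 13 and 34 with all libraries. Without a filter, 15 family genes were called. Scaling by library size alone gave 2709 higher and 5114 lower genes, against 3665 and 3557, and moved the median log2 fold change of all genes from -0.02 to -0.15. With the replicate block, 6982 genes, 13 family genes and 34 pathway genes were called. Deviations from the group means had correlations of -0.107 to 0.145 for same-numbered libraries and -0.180 to 0.225 for differently numbered ones. With 4 libraries per group, these values cannot settle whether the numbers pair the libraries. Depth limits *Sema7a*, *Plxnb2* and the hNK level of *Plxna4*.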
